A study of Mus musculus with 24 samples.

Results

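The CXC chemokine genes described here are Cxcl1, Cxcl2, Cxcl3, Cxcl9, Cxcl10, Cxcl13, Cxcl14, Cxcl16 and Pf4, which are 9 of the 49022 genes listed in both deposited count tables. They were taken by symbol from both tables, as neutrophil-attracting, interferon-induced and homeostatic CXC ligands and platelet factor 4, not by their measured values. Polyadenylated RNA was sequenced in bulk from macrophages sorted from mouse lung, in 8 groups of 3 libraries. Reporter mice carried a Spp1-EGFP knock-in allele, so that EGFP marks cells that express Spp1, the gene of osteopontin. Mice received bleomycin, a drug that injures the lung, at 3 µg per g body weight, or PBS, in each case into the trachea. CD11b+ SiglecF- cells are called interstitial macrophages (IMs) and CD11b- SiglecF+ cells alveolar macrophages (AMs) below. The IM groups were EGFP+ cells of reporter mice at day 14 after bleomycin, EGFP+ cells and EGFP- cells of reporter mice at day 7 after bleomycin, wild-type C57BL/6J cells at day 7 after bleomycin and wild-type C57BL/6J cells at day 7 after PBS. The wild-type cells were not sorted by EGFP. The AM groups were EGFP+ cells of reporter mice at day 7 after PBS, at day 14 after bleomycin and at day 30 after bleomycin. Neither ages nor the zygosity of the knock-in allele were given, and the PBS libraries used here are of day 7, so that in AMs bleomycin and later times cannot be told apart. The labels do not say whether the 3 libraries of a group came from separate animals, so p-values measure the spread between these libraries, which may in part be technical.

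CXC chemokines are small secreted proteins that guide leukocytes along gradients. Cxcl1, Cxcl2 and Cxcl3 act through the receptor Cxcr2 and draw neutrophils, whereas Cxcl9 and Cxcl10 act through Cxcr3 and draw activated T cells and natural killer cells. Cxcl13 guides B cells through Cxcr5, Cxcl16 is made as a membrane protein that binds Cxcr6 and can be shed, Cxcl14 is an atypical member without an agreed receptor, and Pf4 (platelet factor 4) is best known from platelet granules but is also made by some tissue macrophages.

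Libraries held 13450053 to 24580620 counts, and all 9 genes passed the filter on low counts in every comparison. Levels are CPM, a library's counts of a gene scaled to a common library total, and are given replicate by replicate in the order 1, 2, 3. Spp1 stood at 4017, 4738 and 3554 CPM in EGFP+ IMs at day 7, against 449, 552 and 552 CPM in EGFP- IMs, so that the sort by EGFP separated its level without overlap. Itgam, which encodes CD11b, ranged from 151 to 406 CPM in IM libraries, against 5.65 to 30.9 CPM in AM libraries, and Siglecf from 2.43 to 25.7 CPM in IM libraries, against 108 to 428 CPM in AM libraries. Transcripts of other cells were present in the IM gate. The summed level of 12 neutrophil markers was 139.7 to 213 CPM in EGFP+ IMs at day 14, 2148 to 2946 in EGFP+ and 4950.5 to 6514 in EGFP- IMs at day 7, 1789 to 1888 in wild-type IMs after bleomycin and 8119.9 to 9611 after PBS. The AM libraries held 135 to 215 CPM of the same markers after PBS, 88.7 to 114 at day 14 and 549.5 to 631 at day 30. In such bulk samples, fewer cells of a type and less RNA per cell cannot be told apart.

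Of the 9 genes, 7 lie on chromosome 5 in GRCm38. Pf4 (90772435 to 90773383), Cxcl3 (90786103 to 90789600), Cxcl1 (90891241 to 90893115) and Cxcl2 (90903871 to 90905938) lie on the plus strand, with gaps of 12.7, 101.6 and 10.8 kb between neighbours. Cxcl9 (92321347 to 92328079) and Cxcl10 (92346638 to 92348889) lie 18.6 kb apart on the minus strand, and Cxcl13 (95956951 to 95961068) lies on the plus strand. Cxcl16 is on chromosome 11 (70453983 to 70459984, minus strand) and Cxcl14 on chromosome 13 (56288643 to 56296551, minus strand, with a start at 56288647 in the first table). Promoter windows of 250 bases before to 50 bases after the RefSeq gene start (GRCm38.p6) were found for 8 of the 9 genes. Cxcl16 had no window and was not searched. The windows were searched on both strands for the kappaB motif, which NF-kB factors bind, for the interferon-stimulated response element (ISRE) as the letters GAAA repeated after 2 bases of any kind, and for the interferon-gamma activated site (GAS) as TTCNNNGAA. The kappaB motif was present in the windows of 4 members, Cxcl1, Cxcl2, Cxcl3 and Cxcl10, and in 8.46% of all 32851 windows. The ISRE letters were in the windows of Cxcl10 and Cxcl14 (3.44% of all windows) and the GAS letters in that of Cxcl14 (8.3% of all windows). The stretches with a kappaB match are printed for reference beside the levels described below. At day 7 after bleomycin, Cxcl2, Cxcl3 and Cxcl10 stood higher in both reporter fractions than in wild-type IMs. Cxcl1 stood higher than in those wild-type IMs only in the EGFP+ fraction, and Cxcl1 and Cxcl2 parted by EGFP. Capitals mark kappaB matches and, in Cxcl10, also the ISRE letters, which lie 213 bases before the start. Cxcl1, Cxcl2 and Cxcl3 share the letters GGGAATTTCCC, in which overlapping kappaB matches begin 71, 97 and 73 bases before their RefSeq starts. For these genes the RefSeq starts differ from the first bases given above. Counted from the first base given above, the Cxcl2 match lies nearer. In Cxcl10 kappaB matches begin 159 and 104 bases before the start. A match describes the letters alone.
Cxcl1, chr5:90891125-90891214, plus strand: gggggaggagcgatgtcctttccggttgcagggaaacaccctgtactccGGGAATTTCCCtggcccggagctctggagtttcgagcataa
Cxcl2, chr5:90903779-90903868, plus strand: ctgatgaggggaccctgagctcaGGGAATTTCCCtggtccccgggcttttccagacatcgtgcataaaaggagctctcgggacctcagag
Cxcl3, chr5:90785981-90786070, plus strand: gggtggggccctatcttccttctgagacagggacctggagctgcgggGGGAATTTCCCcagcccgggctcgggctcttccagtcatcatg
Cxcl10, chr5:92348980-92349109, minus strand: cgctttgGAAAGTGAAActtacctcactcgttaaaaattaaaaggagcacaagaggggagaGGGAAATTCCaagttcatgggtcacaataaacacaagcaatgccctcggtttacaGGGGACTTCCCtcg

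Corrected for gene length, Cxcl2 was the most abundant of the 9 transcripts in all 8 groups. Its level per kb of exon was 1637 CPM per kb in EGFP- IMs and 163 CPM per kb in AMs at day 30, the highest and lowest group means. It made up 50.2% of the summed CPM per kb of the 9 genes in EGFP+ IMs at day 14 and 81.5% in AMs after PBS, with the other groups between. Second place went to Cxcl16 in both day 7 reporter IM groups and both wild-type IM groups, to Cxcl1 in all 3 AM groups and to Pf4 in EGFP+ IMs at day 14, where Pf4 made up 22.9%. Cxcl13 was last in every group but wild-type IMs after PBS, where it ranked 5 of 9, at 42.7 CPM per kb.

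**Figure D1:**
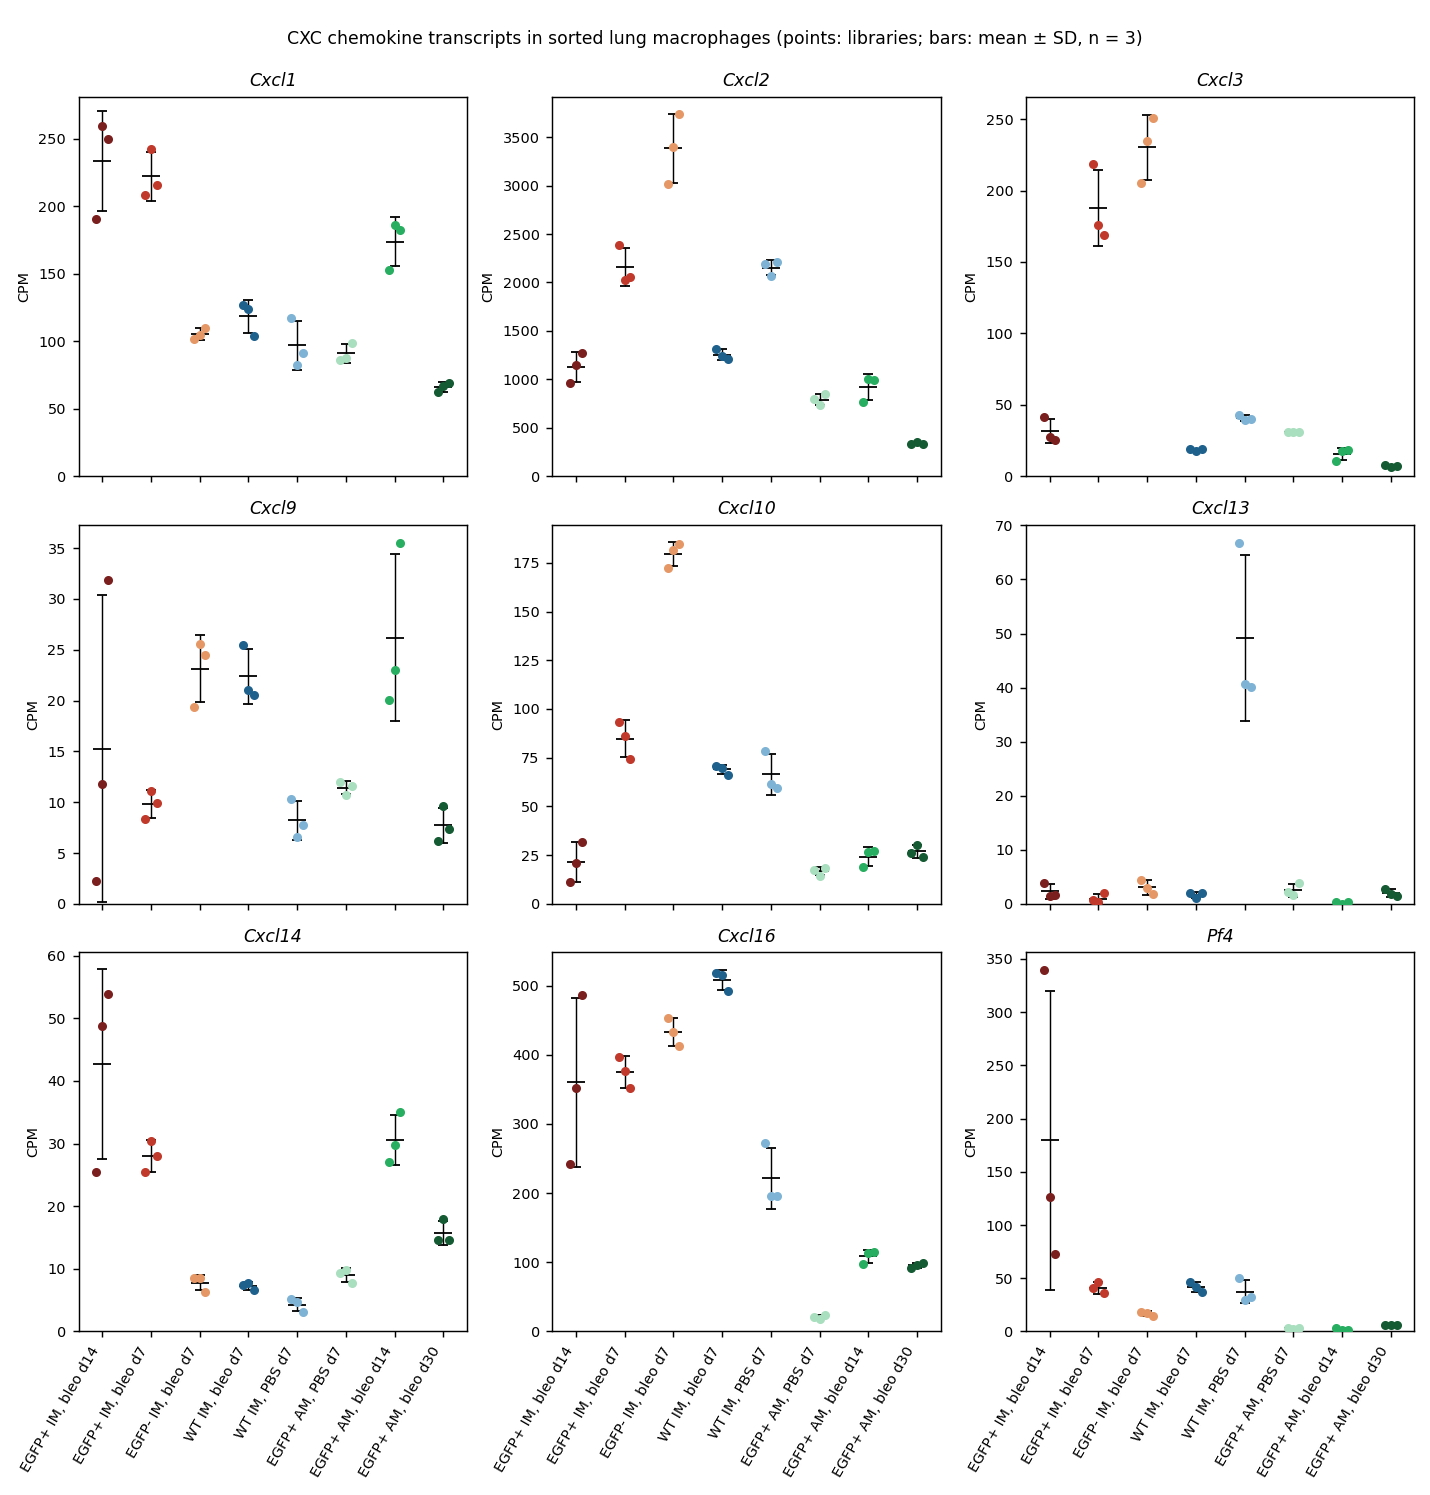
Level of each CXC chemokine transcript in CPM (linear axes from 0) in the 8 groups of sorted macrophages; points are libraries and bars the mean ± SD of 3. Cxcl3 stands high in both day 7 reporter IM groups (169 to 251 CPM), Cxcl13 in wild-type IMs after PBS (40.1 to 66.8 CPM), and Pf4 in EGFP+ IMs at day 14 (73.2 to 339 CPM).

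The genes were tested with edgeR's quasi-likelihood test over all genes, and a gene was called at an adjusted p under 0.05. In wild-type IMs after bleomycin against PBS, 3 of the 9 were called higher and 3 lower, where 70.2% of 15496 genes tested were called, 35.6% higher and 34.5% lower. Between EGFP+ and EGFP- IMs at day 7, 2 were higher and 2 lower, where 34.8% of 14967 genes were called, 17.2% higher and 17.6% lower. Between EGFP+ IMs at day 14 and day 7, 2 were higher and 3 lower, where 52.2% of genes were called, 25.3% higher and 26.9% lower. These shares of members are near the background, so the counts say little about the family and the results below are those of single genes.

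In EGFP+ AMs, 6 were higher and 2 lower at day 14 against PBS, where 54.9% of genes were called, 27.3% higher and 27.6% lower. At day 30 against PBS, 4 were higher and 3 lower, where 47.9% of genes were called, 24.8% higher and 23.1% lower. At day 30 against day 14, 2 were higher and 6 lower, where 38.4% of genes were called, 19.6% higher and 18.7% lower. Between EGFP+ IMs and EGFP+ AMs at day 14, 5 were higher in IMs and 4 were not called, where 21% of 13460 genes were called, 10.8% higher and 10.2% lower. Between wild-type IMs and reporter AMs after PBS, 6 were higher in IMs and 2 lower, where 78.9% of genes were called, 39.2% higher and 39.7% lower. In these 5 comparisons the share of the 9 genes called was above the background, with no test made of that. Between the gates after PBS it was near the background, so that count says little about the family. The last comparison differs in genotype as well as in gate. The test of the gates at day 14 did not pair same-numbered libraries, although these deviated together. IMs at day 14 were counted in another table than IMs at day 7, and AMs after bleomycin in another table than AMs after PBS, so in those comparisons table and group cannot be told apart. The comparisons that share groups (the PBS AMs, the day 14 groups) are not independent of each other.

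**Figure D2:**
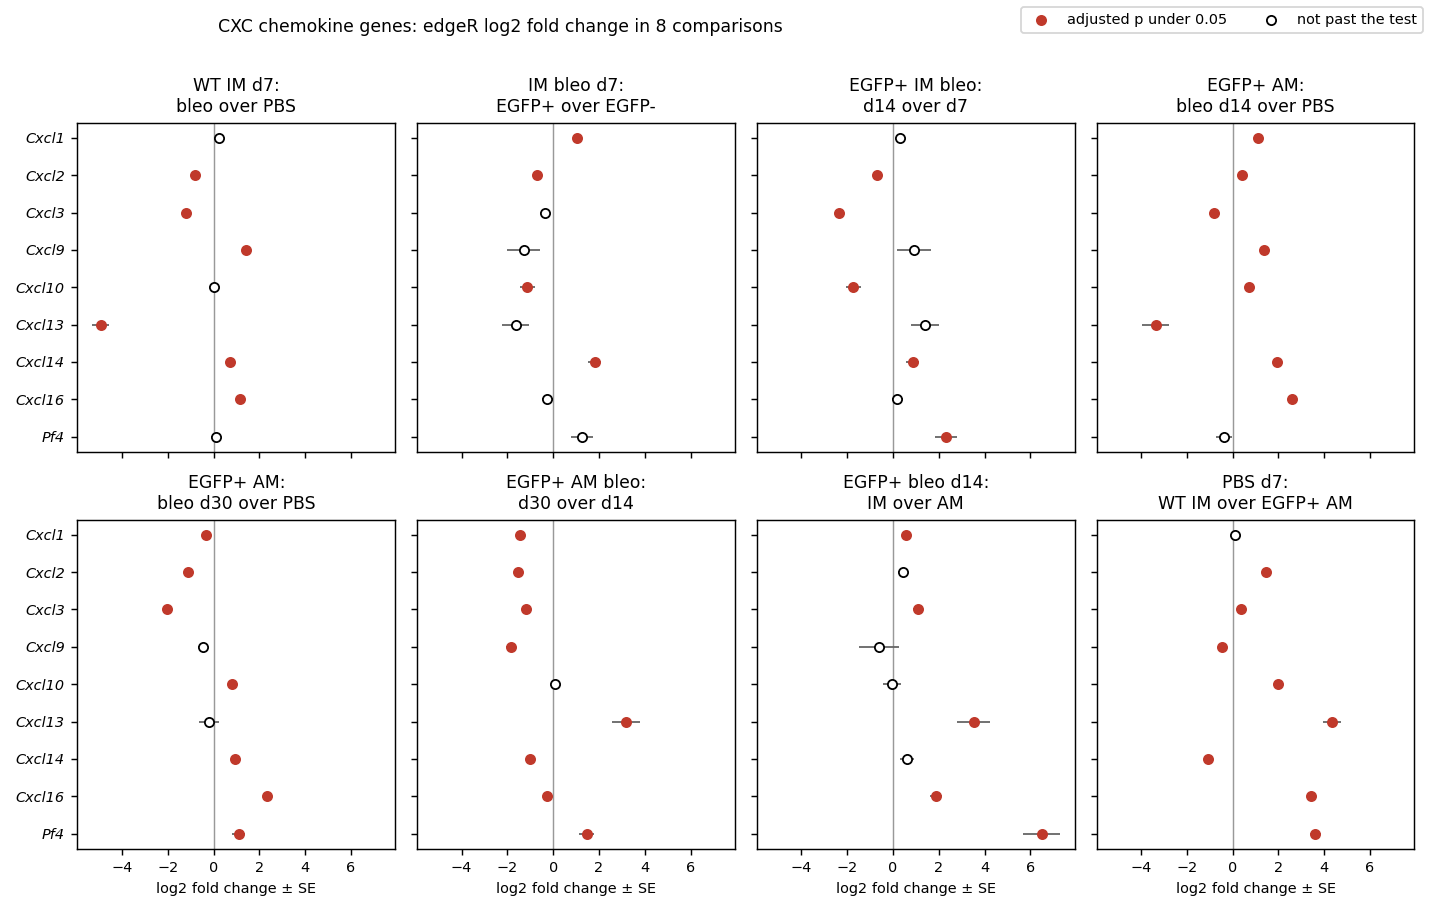
Log2 fold change ± SE (edgeR) of the 9 genes in 8 comparisons, with the first group named over the other; filled points have an adjusted p under 0.05. Cxcl16 lies to the right in both comparisons of bleomycin AMs with PBS AMs (2.58 and 2.32), and Cxcl1, Cxcl2, Cxcl3, Cxcl9, Cxcl14 and Cxcl16 lie to the left at day 30 against day 14.

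Among the neutrophil-attracting genes, Cxcl2 encodes a chemokine that macrophages release early in inflammation. It held 2389, 2027 and 2060.2 CPM in EGFP+ IMs at day 7, against 3021, 3398 and 3738 CPM in EGFP- IMs. All 3 EGFP+ libraries were below all 3 EGFP- libraries, and EGFP+ cells held 1.62-fold less (log2 fold change -0.70 ± 0.16 SE, adjusted p = 0.00585). In wild-type IMs it held 1314, 1235 and 1209 CPM after bleomycin, against 2191, 2062 and 2210.3 CPM after PBS. It fell there without overlap (log2 fold change -0.83 ± 0.05 SE, adjusted p = 9.8e-13). Beside both differences, neutrophil markers moved the same way: all 11 tested were lower in EGFP+ than in EGFP- IMs, and all 12 were lower after bleomycin than after PBS. Their part in the result was not tested. EGFP+ IMs at day 14 held 961, 1145 and 1276 CPM, below every EGFP+ library of day 7 (log2 fold change -0.70 ± 0.16 SE, adjusted p = 0.00317). All 11 neutrophil markers tested were lower at day 14 too (median log2 fold change -3.52), and their part was not tested.

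In EGFP+ AMs Cxcl2 was at 795, 730.3 and 846 CPM after PBS, 765, 1004 and 990.4 CPM at day 14 and 327, 354 and 329.7 CPM at day 30. The day 30 libraries were the lowest of all 24. Day 14 exceeded PBS (log2 fold change 0.40 ± 0.10 SE, adjusted p = 0.00188), with 1 library inside the PBS range, and day 30 lay under it (log2 fold change -1.12 ± 0.10 SE, adjusted p = 6.21e-08). Day 30 libraries held 2.87-fold less than those of day 14 (log2 fold change -1.52 ± 0.10 SE, adjusted p = 4.98e-09). Between IMs and AMs it was 2.72-fold higher in IMs after PBS (log2 fold change 1.44 ± 0.06 SE, adjusted p = 2.89e-14), whereas at day 14 it did not pass the test (log2 fold change 0.42 ± 0.19 SE, adjusted p = 0.156). Beside the PBS difference, all 12 neutrophil markers were also higher in IMs (median log2 fold change 6.125), and their part was not tested. With the replicate number as a block, whose same-numbered libraries deviated together, the day 14 difference was called (log2 fold change 0.41, adjusted p = 0.0474), as it was without IM replicate 1 (log2 fold change 0.57, adjusted p = 0.015) and in 1 fit of all 24 libraries (adjusted p = 0.00967).

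Cxcl1 encodes the closest functional partner of Cxcl2 and moved apart from it by EGFP. EGFP+ IMs held 208, 243 and 216 CPM at day 7, against 102, 105 and 110.0 CPM in EGFP- IMs. The fractions did not overlap and EGFP+ cells held 2.04-fold more Cxcl1 (log2 fold change 1.03 ± 0.14 SE, adjusted p = 0.000331), the opposite direction to Cxcl2. By day 14 EGFP+ IMs held 191, 259 and 250.1 CPM, which overlapped the day 7 range and did not pass the test (log2 fold change 0.30 ± 0.14 SE, adjusted p = 0.0867). Without day 14 replicate 1, which has the lowest of the 3 values, the day 14 difference was called (log2 fold change 0.46, adjusted p = 0.000317), as it was in 1 fit of all 24 libraries (adjusted p = 0.0486). Wild-type IMs held 127, 124 and 104 CPM after bleomycin, against 117, 82.4 and 91 CPM after PBS. These overlapped and were not called (log2 fold change 0.25 ± 0.16 SE, adjusted p = 0.228), but were called without PBS replicate 1, the highest PBS library (log2 fold change 0.41, adjusted p = 0.000275), and with no low-count filter (log2 fold change 0.30, adjusted p = 0.00838).

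In EGFP+ AMs Cxcl1 was at 86.1, 87.7 and 99 CPM after PBS, 153, 186 and 182 CPM at day 14 and 62.3, 66.9 and 69.1 CPM at day 30. No library of these 3 groups overlapped another group: day 14 exceeded PBS (log2 fold change 1.12 ± 0.09 SE, adjusted p = 1.81e-08), day 30 lay under it (log2 fold change -0.34 ± 0.09 SE, adjusted p = 0.00441), and day 30 held 2.76-fold less than day 14 (adjusted p = 3.06e-09). At day 14 it was higher in IMs than in AMs (log2 fold change 0.55 ± 0.17 SE, adjusted p = 0.045), a call that was lost without any 1 of 5 of the 6 libraries (adjusted p = 0.0968 to 0.169) and kept without IM replicate 1. After PBS the gates did not differ by the test (log2 fold change 0.09 ± 0.13 SE, adjusted p = 0.54). In order of group means, EGFP+ IMs at day 14 and day 7 led with overlapping ranges. The 3 EGFP+ groups from days 7 and 14 after bleomycin stood above every library of the other 5 groups.

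Cxcl3, a further ligand of Cxcr2, differed most of the 9 between reporter and wild-type IMs. It held 219, 176 and 169 CPM in EGFP+ IMs and 206, 235 and 251 CPM in EGFP- IMs at day 7 after bleomycin, against 18.9, 17.8 and 18.8 CPM in wild-type IMs at the same day and dose. The EGFP+ and EGFP- fractions overlapped and did not differ by the test (log2 fold change -0.34 ± 0.15 SE, adjusted p = 0.0977), except without EGFP+ replicate 1 (log2 fold change -0.48, adjusted p = 0.0443). Both reporter fractions stood far above the wild-type cells: the gene was 11-fold higher in EGFP+ reporter IMs (log2 fold change 3.46 ± 0.12 SE, adjusted p = 1.19e-09) and 13.7-fold higher in EGFP- reporter IMs (log2 fold change 3.78 ± 0.12 SE, adjusted p = 1.54e-10). These 2 comparisons of reporter with wild-type IMs were added after the levels of Cxcl3 had been seen, so for Cxcl3 they describe a difference already noticed. The reporter and wild-type groups differ in genotype and in the sort by EGFP, which cannot be told apart.

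The same comparisons showed how the other members stood. In EGFP+ reporter IMs, 5 members were higher and 2 lower than in wild-type IMs, where 34.9% of 15144 genes were called, 18.6% higher and 16.2% lower. Besides Cxcl3, these were Cxcl1 (2.03-fold), Cxcl2 (1.86-fold), Cxcl10 (1.33-fold) and Cxcl14 (4.14-fold) higher, with Cxcl9 (2.11-fold) and Cxcl16 (1.25-fold) lower. In EGFP- reporter IMs, 3 members were higher and 1 lower, where 59.5% of genes were called, 27.8% higher and 31.7% lower. These were Cxcl3, Cxcl2 (2.98-fold) and Cxcl10 (2.87-fold) higher, and Pf4 (2.26-fold) lower. In 1 fit of all 24 libraries, the calls of Cxcl9, Cxcl10 and Cxcl16 in EGFP+ against wild-type cells were lost (adjusted p = 0.172, 0.261 and 0.244). In EGFP- against wild-type cells, Cxcl13 was not called in the fit of the day 7 libraries but was called higher with no low-count filter, by DESeq2 and with only the 2 groups in the fit (adjusted p = 0.00465, 0.0429 and 0.0106). Every library of both reporter fractions held more Cxcl2, Cxcl3 and Cxcl10 than wild-type cells after bleomycin, by unequal amounts.

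Of 20 NF-kB targets and feedback genes, 17 were higher and 2 lower in EGFP+ reporter IMs than in wild-type IMs (median log2 fold change 0.49, against -0.02 over all genes), and 18 were higher and 1 lower in EGFP- reporter IMs (median 1.22, against -0.05 over all genes). Il1a, which encodes interleukin-1 alpha, was 3.01-fold higher in EGFP+ and 3.27-fold higher in EGFP- reporter IMs. Of 20 genes induced by type I interferon, 12 were higher and 0 lower in EGFP+ reporter IMs (median 0.41), and all 20 were higher in EGFP- reporter IMs (median 1.45). Of 22 interferon-gamma response genes, 8 were higher and 6 lower in EGFP+, and 17 higher and 3 lower in EGFP- reporter IMs. The part of either pathway in the chemokine levels was not tested. Of 12 neutrophil markers, 5 were higher and 3 lower in EGFP+ reporter IMs than in wild-type IMs, and 8 were higher and 1 lower in EGFP- reporter IMs. Wild-type IMs after PBS, whose summed neutrophil markers were the highest of all groups, held Cxcl3 at 42.8, 39.4 and 39.9 CPM. Of 13 dissociation stress genes, 1 was higher and 8 lower in EGFP+ reporter IMs, and 6 were higher and 4 lower in EGFP- reporter IMs. The part of neutrophil RNA or of dissociation in these levels was not tested.

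**Figure D3:**
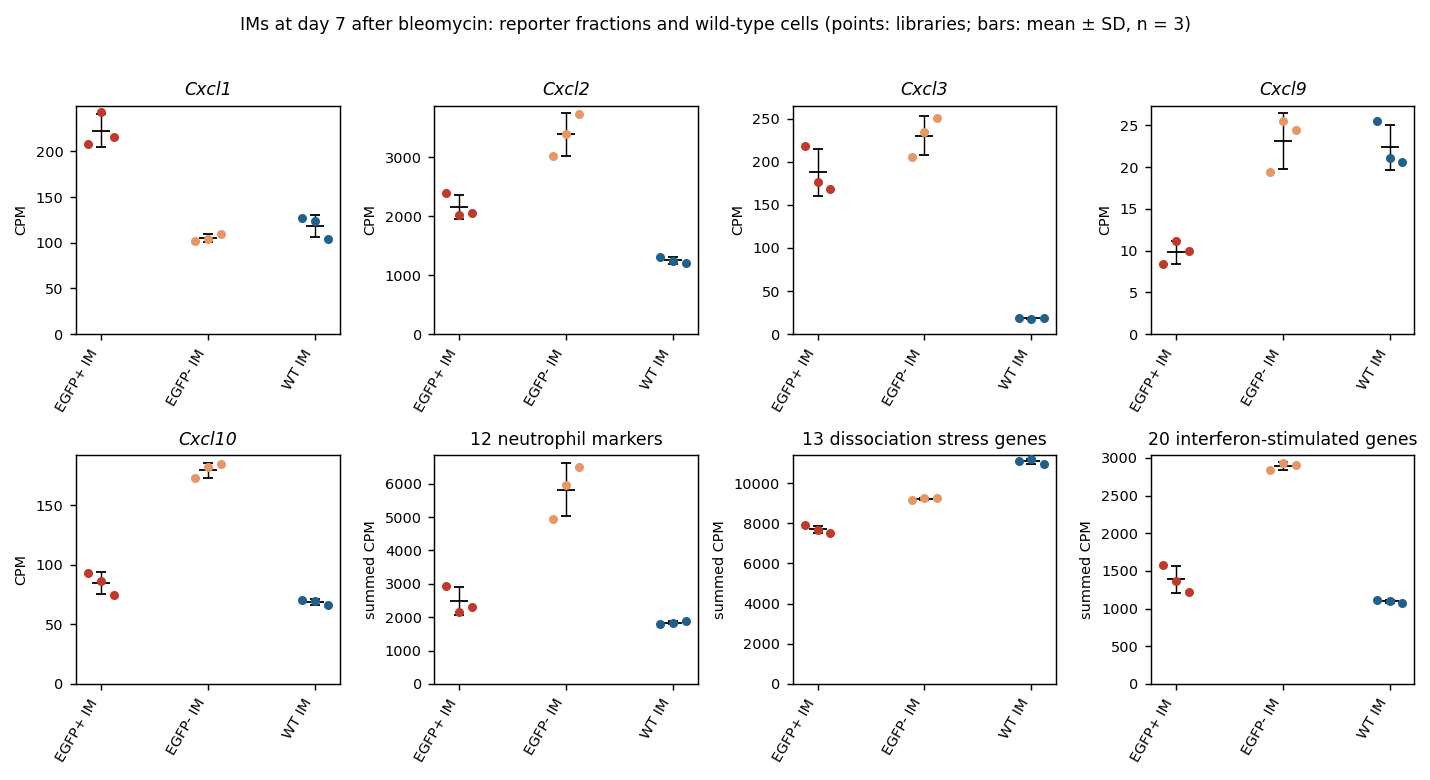
IMs at day 7 after bleomycin: CPM of 5 chemokine genes and summed CPM of 3 gene lists (linear axes from 0) in EGFP+ reporter, EGFP- reporter and wild-type cells; points are libraries and bars the mean ± SD of 3. Cxcl3 is high in both reporter fractions (169 to 251 CPM) and low in wild-type cells (17.8 to 18.9 CPM), whereas the interferon-stimulated genes and Cxcl10 are highest in EGFP- cells.

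Elsewhere Cxcl3 was lower after bleomycin than after PBS in wild-type IMs, with no overlap (log2 fold change -1.18 ± 0.08 SE, adjusted p = 1.2e-11). By day 14 EGFP+ IMs held 41.2, 27.6 and 25.5 CPM, 5.18-fold below day 7 (log2 fold change -2.37 ± 0.16 SE, adjusted p = 7.96e-07). Beside these differences, all 12 neutrophil markers were lower in wild-type IMs after bleomycin, and all 11 tested were lower at day 14. The part of neutrophil RNA was not tested. EGFP+ AMs held 31.2, 31 and 31.2 CPM after PBS, 10.8, 17.8 and 18.3 CPM at day 14 and 7.59, 6.62 and 7.04 CPM at day 30. The AM groups did not overlap and stepped down in that order (day 14 against PBS, log2 fold change -0.81 ± 0.15 SE, adjusted p = 0.000277; day 30 against PBS, log2 fold change -2.02 ± 0.16 SE, adjusted p = 2.56e-08). At day 30 it was 2.31-fold lower than at day 14 (adjusted p = 3.48e-05). At day 14 it therefore went the opposite way to Cxcl1 and Cxcl2, relative to PBS AMs. IMs exceeded AMs both on day 14 (log2 fold change 1.11 ± 0.22 SE, adjusted p = 0.00553) and after PBS (log2 fold change 0.38 ± 0.07 SE, adjusted p = 7.65e-05). Neutrophil markers were also higher in IMs, 5 of 8 tested on day 14, with 0 lower, and all 12 after PBS.

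Their receptor gene Cxcr2, a receptor mainly of neutrophils, stood at 155, 112 and 117 CPM in EGFP+ IMs at day 7, against 297, 316 and 310.2 CPM in EGFP- IMs. It was 2.48-fold lower in EGFP+ cells (adjusted p = 4.84e-05). It held 3, 2.3 and 2.15 CPM in EGFP+ IMs at day 14, 44.5-fold below day 7 (adjusted p = 5.76e-10). In the same day 14 IM libraries, Cxcl1 was measured at 191 CPM or more and Cxcl2 at 961 CPM or more. In AMs Cxcr2 held 8.69, 7.73 and 8.56 CPM after PBS, 1.95, 4.98 and 2.46 CPM at day 14 and 25.1, 28.1 and 27.5 CPM at day 30.

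Of the ligands of Cxcr3, Cxcl10 encodes a chemokine induced by interferons. It held 93.5, 86.3 and 74.5 CPM in EGFP+ IMs at day 7, against 172, 182 and 184 CPM in EGFP- IMs. The fractions did not overlap and EGFP+ cells held 2.19-fold less (log2 fold change -1.13 ± 0.32 SE, adjusted p = 0.0252). That fit shares its spread with the day 14 IMs, whose Cxcl10 libraries vary more, and the call was lost without any 1 of the 6 libraries (adjusted p = 0.0506 to 0.0842) and with no low-count filter (adjusted p = 0.105). With only the 2 day 7 groups in the fit it was called (log2 fold change -1.09, adjusted p = 1.98e-08). Beside it, 19 of 20 genes induced by type I interferon fell on the EGFP+ side and 1 was not called (median log2 fold change -1.16, against -0.01 over all genes). Oas2, an antiviral enzyme gene, was 2.64-fold lower (adjusted p = 4.25e-05).

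EGFP+ IMs at day 14 held 11.4, 20.7 and 32 CPM of Cxcl10, all below day 7 (log2 fold change -1.73 ± 0.33 SE, adjusted p = 0.00277). In wild-type IMs, Cxcl10 was at 70.8, 69.8 and 66.3 CPM after bleomycin, against 78.4, 61.3 and 59.5 CPM after PBS. These overlapped and the estimate was near 0 (log2 fold change 0.01 ± 0.09 SE, adjusted p = 0.925), while 11 of 20 interferon-stimulated genes rose and 5 fell. In EGFP+ AMs it held 17.5, 14.3 and 18.3 CPM after PBS, 18.8, 26.8 and 27.1 CPM at day 14 and 26.3, 30.4 and 23.9 CPM at day 30. All 6 bleomycin AM libraries were above the 3 PBS libraries (day 14, log2 fold change 0.72 ± 0.15 SE, adjusted p = 0.000537; day 30, log2 fold change 0.80 ± 0.15 SE, adjusted p = 0.000234). Day 30 and day 14 did not differ by the test (log2 fold change 0.08 ± 0.15 SE, adjusted p = 0.707). After PBS, IMs held 3.98-fold more than AMs (adjusted p = 4.85e-09), whereas at day 14 the gates overlapped (log2 fold change -0.03 ± 0.39 SE, adjusted p = 0.969). Cxcl10 shares 133 exon bases with Art3 on the other strand, 5.9% of Cxcl10. The strand setting of the counting was not given in the sources used here.

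Cxcl9, a ligand of Cxcr3 that depends mainly on interferon gamma, rose after bleomycin in wild-type IMs, where Cxcl10 was not called. It held 25.5, 21.1 and 20.6 CPM in wild-type IMs after bleomycin, against 10.3, 6.6 and 7.72 CPM after PBS. All bleomycin libraries exceeded all PBS libraries, and Cxcl9 rose 2.65-fold (log2 fold change 1.41 ± 0.14 SE, adjusted p = 2.2e-08). Of 22 interferon-gamma response genes, 16 rose and 6 fell with it (median log2 fold change 0.70, against 0.00 over all genes), with Gbp7, a guanylate-binding protein gene, 4.23-fold higher. Of 12 T and NK cell markers, 6 were higher and 1 lower, with a summed level of 188 to 201 CPM after bleomycin, against 152 to 159 CPM after PBS. Their part in the result was not tested.

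In reporter IMs at day 7, Cxcl9 was at 8.36, 11.1 and 9.92 CPM in EGFP+ cells, against 19.4, 25.5 and 24.5 CPM in EGFP- cells. The ranges did not overlap, yet the gene did not pass the test (log2 fold change -1.29 ± 0.73 SE, adjusted p = 0.214) in the fit that includes the day 14 IMs. With only the 2 day 7 groups it did (log2 fold change -1.25, adjusted p = 9.76e-07). EGFP+ IMs at day 14 held 2.22, 11.7 and 31.9 CPM, a spread that covered the whole day 7 range (log2 fold change 0.92 ± 0.74 SE, adjusted p = 0.33). That value was 1.43 without day 14 replicate 1 (adjusted p = 0.0293) and -0.28 without day 14 replicate 3 (adjusted p = 0.725), so these libraries give no stable direction.

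In EGFP+ AMs Cxcl9 was at 12, 10.7 and 11.6 CPM after PBS, 20.1, 23 and 35.5 CPM at day 14 and 6.19, 9.62 and 7.37 CPM at day 30. Day 14 stood above the other AM groups with no overlap (log2 fold change 1.39 ± 0.20 SE, adjusted p = 4.69e-05 against PBS), and day 30 was 3.58-fold below it (log2 fold change -1.84 ± 0.21 SE, adjusted p = 1.33e-05). Day 30 against PBS did not pass the test (log2 fold change -0.45 ± 0.22 SE, adjusted p = 0.1), except without day 30 replicate 2 (log2 fold change -0.64, adjusted p = 0.0413), with only the 2 groups in the fit (adjusted p = 0.0153) and with no low-count filter (log2 fold change -0.50, adjusted p = 0.00446). Between day 14 and day 30, then, Cxcl9 fell and Cxcl10 was not called, and the difference between these genes was not tested. After PBS, Cxcl9 was lower in IMs than in AMs (log2 fold change -0.49 ± 0.15 SE, adjusted p = 0.00601; lost in 1 fit of all 24 libraries, adjusted p = 0.468), and at day 14 the gates overlapped (log2 fold change -0.61 ± 0.88 SE, adjusted p = 0.688). Cxcr3, their receptor gene, ranged from 0.27 CPM to 6.82 CPM over the 24 libraries.

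Cxcl13, the B cell-guiding chemokine gene, was abundant in 1 group alone. Wild-type IMs held 1.94, 1.06 and 1.99 CPM after bleomycin, against 66.8, 40.6 and 40.1 CPM after PBS. It was 30.6-fold lower after bleomycin, with no overlap (log2 fold change -4.94 ± 0.37 SE, adjusted p = 0.00011). Every other library of the series held 4.34 CPM or less, so that the wild-type PBS IMs exceeded all 21 others. Markers of several other cell types were also highest in those 3 libraries. Summed B cell markers stood at 390.1 to 467 CPM in wild-type IMs after bleomycin, against 1494 to 1714 CPM after PBS, and summed fibroblast markers at 38.2 to 43 CPM after bleomycin, against 147 to 196 CPM after PBS. All 8 B cell markers and all 7 tested fibroblast markers were lower after bleomycin. Summed lung epithelial markers stood at 139 to 180 CPM after bleomycin, against 4481 to 6611 CPM after PBS. Of 11 such markers, 9 were lower after bleomycin and 2 higher. The part of these cell types in the Cxcl13 level was not tested.

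Cxcl13 held 0.686, 0.264 and 1.98 CPM in EGFP+ IMs at day 7, against 4.34, 3.01 and 1.72 CPM in EGFP- IMs (log2 fold change -1.65 ± 0.60 SE, adjusted p = 0.0554). These ranges overlapped and rest on 4 to 61 counts per library. Without EGFP+ replicate 3, which holds 32 of the 47 EGFP+ counts, Cxcl13 was called lower on the EGFP+ side (log2 fold change -2.66, adjusted p = 0.0122), as it was with only the 2 day 7 groups in the fit (log2 fold change -1.60, adjusted p = 0.0381), by DESeq2 (adjusted p = 0.0186) and in 1 fit of all 24 libraries (adjusted p = 0.0326). It held 3.93, 1.47 and 1.54 CPM in EGFP+ IMs at day 14, which was not called against day 7 (log2 fold change 1.41 ± 0.61 SE, adjusted p = 0.0744) except without that day 7 library (log2 fold change 2.43, adjusted p = 0.00992) and by DESeq2 (adjusted p = 0.0395).

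In EGFP+ AMs Cxcl13 was at 2.14, 1.55 and 3.84 CPM after PBS, 0.27, 0 and 0.324 CPM at day 14 and 2.73, 1.78 and 1.45 CPM at day 30. The 0 counts of day 14 replicate 2 allow up to 0.223 CPM, an upper limit of 3 counts that covers counting error only. The day 14 libraries held 9 counts in all and stood below both other AM groups (log2 fold change -3.37 ± 0.60 SE, adjusted p = 0.000153 against PBS). Day 30 was above day 14 (log2 fold change 3.17 ± 0.61 SE, adjusted p = 0.000674) and not different from PBS by the test (log2 fold change -0.20 ± 0.42 SE, adjusted p = 0.725). B cell markers moved the same way in AMs: their summed level was 793 to 950.4 CPM after PBS, 13.2 to 19.4 CPM at day 14 and 373 to 469 CPM at day 30, and all 8 were lower at day 14 than after PBS and higher at day 30 than at day 14. Summed fibroblast markers were at 7.68 to 10.7 CPM after PBS, 3.12 to 7.01 CPM at day 14 and 71.8 to 77.9 CPM at day 30, with all 6 tested higher at day 30 than at day 14. The part of either cell type in the Cxcl13 level of AMs was not tested. IMs exceeded AMs after PBS (log2 fold change 4.34 ± 0.40 SE, adjusted p = 0.000329) and on day 14 (log2 fold change 3.52 ± 0.71 SE, adjusted p = 0.00526). Beside the PBS difference, all 8 B cell markers and all 7 tested fibroblast markers were also higher in IMs. Of 11 lung epithelial markers, 9 were higher there and 2 lower. Cxcr5, the receptor gene, was also highest in wild-type IMs after PBS, at 15.5, 18.8 and 17.7 CPM after bleomycin, against 31.6, 35 and 36.8 CPM after PBS, and was 2.05-fold lower after bleomycin (adjusted p = 1.43e-09).

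Cxcl14, the atypical member, was higher in the EGFP+ fraction. EGFP+ IMs held 25.5, 30.5 and 28 CPM at day 7, against 8.47, 8.54 and 6.36 CPM in EGFP- IMs. The fractions were far apart relative to their spread, and EGFP+ cells held 3.48-fold more (log2 fold change 1.80 ± 0.30 SE, adjusted p = 0.00185). In the same comparison 7 of 11 tested alveolar macrophage markers were higher in EGFP+ cells and 4 were not called (median log2 fold change 1.48, against -0.01 over all genes), with Krt79, a keratin gene, 25.5-fold higher and Ear1, a ribonuclease gene with close paralogs that may share its reads, 30.0-fold higher. The summed level of all 12 was 2438 to 3754 CPM in EGFP+ IMs, against 2218 to 2415 CPM in EGFP- IMs. Of 12 interstitial macrophage markers, 6 were also higher in EGFP+ cells and 0 lower, and of 7 general macrophage markers 4 were higher and 0 lower. The part of these lists in the Cxcl14 difference was not tested. On day 14 the EGFP+ IMs held 25.5, 48.7 and 53.9 CPM. This overlapped day 7, and the call of a rise (log2 fold change 0.86 ± 0.27 SE, adjusted p = 0.0246) was lost on leaving out day 7 replicate 1 or 3, or day 14 replicate 2 or 3, in turn (adjusted p = 0.0669 to 0.102), with no low-count filter (adjusted p = 0.114) and with only the 2 groups in the fit (adjusted p = 0.0517). Wild-type IMs held 7.5, 7.79 and 6.58 CPM after bleomycin, against 5.15, 4.64 and 3.1 CPM after PBS. It rose there 1.64-fold, with no overlap (log2 fold change 0.72 ± 0.19 SE, adjusted p = 0.00197).

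In EGFP+ AMs Cxcl14 was at 9.4, 9.76 and 7.68 CPM after PBS, 27.1, 29.7 and 35 CPM at day 14 and 14.6, 18 and 14.5 CPM at day 30. The 3 groups did not overlap: both day 14 (log2 fold change 1.95 ± 0.14 SE, adjusted p = 5.51e-09) and day 30 (log2 fold change 0.92 ± 0.14 SE, adjusted p = 5.4e-05) exceeded PBS, and day 30 lay under day 14 (log2 fold change -1.04 ± 0.14 SE, adjusted p = 2.02e-05). After PBS it was lower in IMs than in AMs (log2 fold change -1.07 ± 0.18 SE, adjusted p = 2.78e-05). At day 14 the gates overlapped and it was not called (log2 fold change 0.62 ± 0.30 SE, adjusted p = 0.196), although it was without IM replicate 1, its lowest IM library (log2 fold change 0.91, adjusted p = 0.000366), with no low-count filter (adjusted p = 0.00276) and in 1 fit of all 24 libraries (adjusted p = 0.0306). It was the only member whose annotated end differs between the tables, by 4 bases at its 3 prime side.

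Cxcl16 encodes the membrane-bound chemokine, which also takes up oxidised lipoprotein. Wild-type IMs held 518, 515 and 492 CPM after bleomycin, against 273, 195 and 196 CPM after PBS. It rose 2.23-fold with no overlap (log2 fold change 1.16 ± 0.15 SE, adjusted p = 0.000967). EGFP+ IMs held 397, 377 and 352 CPM at day 7, against 453, 432 and 412 CPM in EGFP- IMs. These did not overlap, but the gene did not pass the test (log2 fold change -0.25 ± 0.23 SE, adjusted p = 0.424). With only the 2 day 7 groups in the fit it was called lower in EGFP+ cells (log2 fold change -0.21, adjusted p = 0.0136). EGFP+ IMs at day 14 held 242, 352 and 486 CPM, a range that spans day 7 (log2 fold change 0.18 ± 0.23 SE, adjusted p = 0.526), with replicate 1 again the lowest. Without that replicate, day 14 was called higher (log2 fold change 0.42, adjusted p = 0.0111), and without replicate 3 the estimate was -0.17.

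Of the members that rose in AMs after bleomycin, Cxcl16 had the largest fold. AMs held 20.6, 18.5 and 23.3 CPM after PBS, 98, 113 and 115 CPM at day 14 and 92.3, 95.9 and 98.5 CPM at day 30. All 6 bleomycin libraries held 92.3 CPM or more, and against PBS the rise came to 5.96-fold by day 14 (log2 fold change 2.58 ± 0.10 SE, adjusted p = 1.48e-12) and 4.99-fold by day 30 (log2 fold change 2.32 ± 0.10 SE, adjusted p = 5.68e-12). Day 30 was called slightly below day 14 (log2 fold change -0.26 ± 0.09 SE, adjusted p = 0.0334), a call lost without any 1 of day 14 replicate 3 and the day 30 libraries (adjusted p = 0.0629 to 0.121) and in 1 fit of all 24 libraries (adjusted p = 0.293). IMs exceeded AMs after PBS (10.7-fold, log2 fold change 3.41 ± 0.18 SE, adjusted p = 6.03e-06) and at day 14 (3.65-fold, log2 fold change 1.87 ± 0.27 SE, adjusted p = 0.0014).

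The count of Cxcl16 has a limit: 552 of its exon bases, 18.3% of the gene, are shared with Zmynd15 on the other strand (chromosome 11, 70459433 to 70466202). Zmynd15 held 239, 240.1 and 227 CPM in wild-type IMs after bleomycin, against 154, 109.9 and 102 CPM after PBS, and its log2 level followed Cxcl16 at r = 0.997 over the 24 libraries. Without a known strand setting, reads of the genes cannot be told apart in the shared part. With the counts of both genes summed, the direction and the call of Cxcl16 were unchanged in all 10 comparisons, for example log2 fold change 2.53 in AMs at day 14 against PBS and 1.07 in wild-type IMs. Because Zmynd15 followed Cxcl16 so closely, the sum could hardly have come out otherwise. It does not tell to which gene the reads of the shared part belong.

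**Figure D4:**
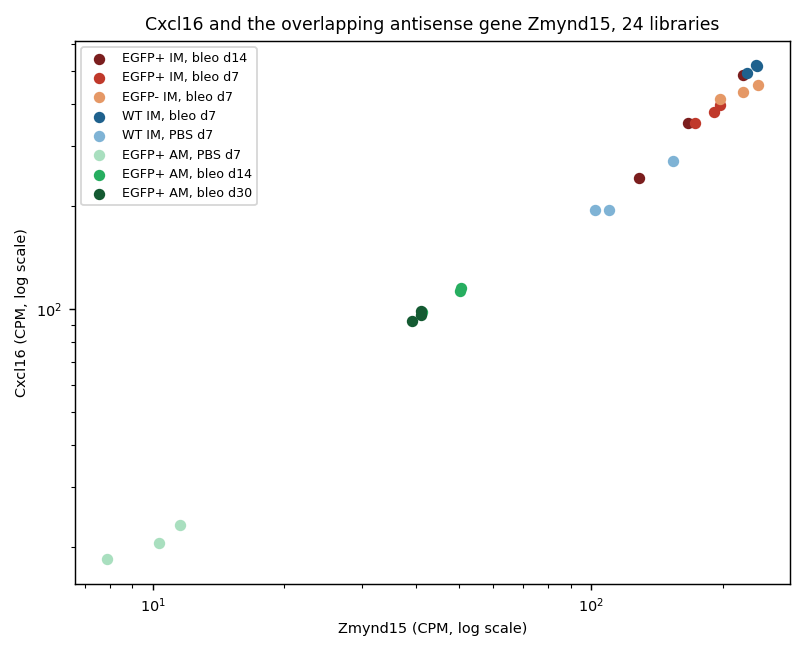
Level of Cxcl16 against that of the antisense gene Zmynd15, which overlaps it, in CPM on log axes; each point is 1 of 24 libraries, coloured by group. The points lie along 1 line (r = 0.997 on the log2 scale), from PBS AMs at the lower end to IMs after bleomycin at the upper end.

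Of the genes that release or handle chemokines, Adam10, which encodes the protease that sheds Cxcl16, was 2.19-fold higher in wild-type IMs after bleomycin than after PBS (adjusted p = 2.76e-15) and 2.45-fold higher in AMs at day 14 than after PBS (adjusted p = 7.2e-11). In that AM comparison 7 of 8 such genes were higher and 1 lower, and in wild-type IMs 2 were higher and 3 lower. Cxcr6, the receptor gene of Cxcl16, ranged from 1.01 to 9.94 CPM over all libraries.

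Pf4 was a transcript mainly of the IM gate. EGFP+ IMs held 339, 126 and 73.2 CPM at day 14, against 3.64, 1.56 and 1.04 CPM in EGFP+ AMs. The gates did not overlap and Pf4 was 89.9-fold higher in IMs (log2 fold change 6.49 ± 0.81 SE, adjusted p = 0.00409), the largest fold of any member in the 10 comparisons. The size of this fold, though not its call, shifted with 1 library at each end. It was 5.74 on the log2 scale without IM replicate 1 (adjusted p = 0.000967) and 7.18 without AM replicate 1 (adjusted p = 0.00779). After PBS, IMs held 12.2-fold more than AMs (log2 fold change 3.61 ± 0.25 SE, adjusted p = 2.72e-06). Pf4 was 4.95-fold higher in EGFP+ IMs at day 14 than at day 7, with no overlap (log2 fold change 2.31 ± 0.48 SE, adjusted p = 0.00472). Without day 14 replicate 1 the rise was 1.53 on the log2 scale (adjusted p = 0.000197).

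At day 7, Pf4 held 40.4, 46.6 and 35.8 CPM in EGFP+ IMs, against 18.6, 17.1 and 14.6 CPM in EGFP- IMs. All EGFP+ libraries were above all EGFP- libraries, but Pf4 did not pass the test in the fit that includes day 14 (log2 fold change 1.24 ± 0.49 SE, adjusted p = 0.0861). With only the 2 day 7 groups it did (log2 fold change 1.29, adjusted p = 6.74e-08), as it did by DESeq2 (adjusted p = 0.0429) and in 1 fit of all 24 libraries (adjusted p = 0.0192). Wild-type IMs held 46.1, 41.3 and 37.1 CPM after bleomycin, against 50.1, 29.5 and 32.7 CPM after PBS. These overlapped (log2 fold change 0.11 ± 0.23 SE, adjusted p = 0.713), and only without PBS replicate 1 was Pf4 called higher (log2 fold change 0.37, adjusted p = 0.0018). AMs held 3.15, 2.48 and 3.62 CPM after PBS, 3.64, 1.56 and 1.04 CPM at day 14 and 6.01, 5.8 and 6.31 CPM at day 30. Day 30 was above both other AM groups (log2 fold change 1.09 ± 0.30 SE, adjusted p = 0.00676 against PBS; log2 fold change 1.46 ± 0.33 SE, adjusted p = 0.0021 against day 14), calls that were lost in 1 fit of all 24 libraries (adjusted p = 0.108 and 0.0768), while day 14 against PBS was not called (log2 fold change -0.37 ± 0.34 SE, adjusted p = 0.359), except without day 14 replicate 1 (log2 fold change -1.06, adjusted p = 0.00601). Without that library, day 30 against day 14 came to 2.15 on the log2 scale (adjusted p = 1.49e-05).

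Between groups, the summed level of 12 platelet and megakaryocyte markers was not highest where Pf4 was highest. It was 11.3 to 19.9 CPM in EGFP+ IMs at day 14, the group with the most Pf4, and 74.8 to 84 CPM in AMs after PBS, where Pf4 was at 3.62 CPM or less. Gene by gene, however, 5 of 7 tested markers were higher and 1 lower in IMs than in AMs after PBS (median log2 fold change 1.296), the direction of Pf4. Between the gates at day 14, 1 of 4 tested was higher in IMs and 1 lower. Within the day 14 IMs the sum did follow the order of Pf4, at 19.9, 12.6 and 11.3 CPM. That order came from Ppbp, itself a CXC ligand gene and among the 12 markers, at 15.7, 4.28 and 2.64 CPM. Without Ppbp, the summed level of the other markers was lowest in the day 14 library with the most Pf4. Of these other markers, Gp9, Gp1bb and Gp6, picked after their values were seen, held at most 0.0615 CPM in the day 14 IMs. As picked genes they do not stand for the list, in which Ppbp followed the order of Pf4. The part of platelet RNA in the Pf4 level was not tested.

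The 3 EGFP+ IM libraries of day 14 were unlike each other. Replicate 1 had the most Pf4, Cxcl3 and Cxcl13, and the least Cxcl1, Cxcl2, Cxcl9, Cxcl10, Cxcl14 and Cxcl16. In the same order of replicates, the resident macrophage genes Folr2, Cd163, Lyve1 and Mrc1, picked after their values were seen, held 87.9, 45.9 and 50.5 CPM, 55.1, 21.4 and 2.46 CPM, 11.4, 4.98 and 0.799 CPM and 2852, 1461 and 757 CPM. All 4 were highest in replicate 1. The whole list of 12 interstitial macrophage markers, to which these 4 belong, did not follow them and summed to 11223, 11635 and 13136 CPM, lowest in replicate 1, as were the 7 general macrophage markers at 15444, 37111 and 50202 CPM. The 12 alveolar macrophage markers summed to 3678, 2978 and 2605 CPM and the monocyte markers to 3756, 2604 and 2336 CPM, both highest in replicate 1. Both of these lists hold the gene Chil3, so their sums are not independent. Replicate 1 thus stood apart in several macrophage and monocyte lists, in both directions. What made replicate 1 differ was not tested.

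**Figure D5:**
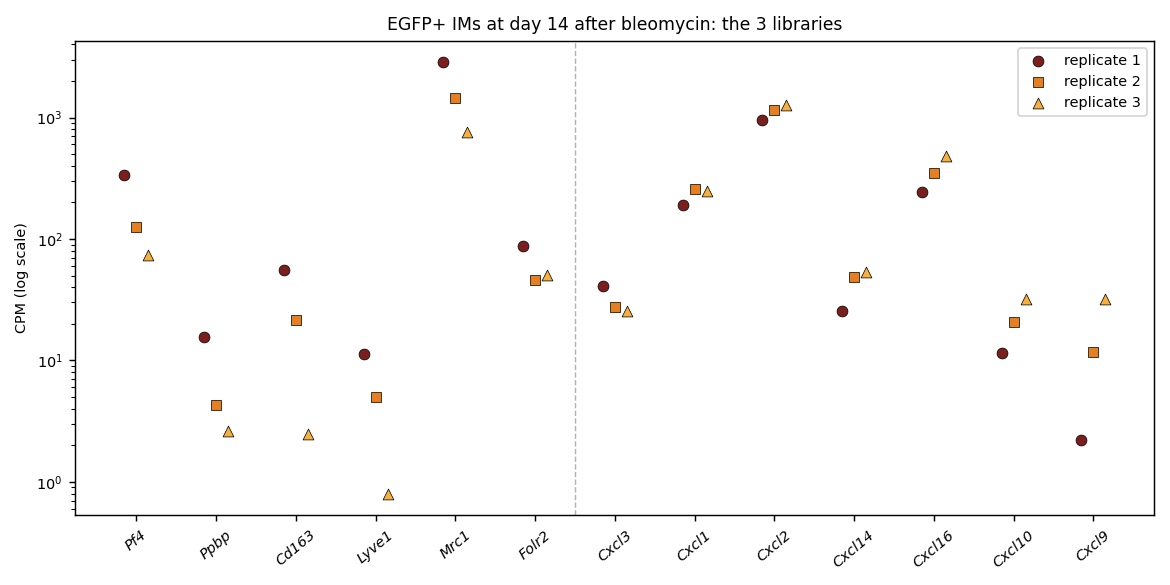
CPM (log axis) of Pf4, Ppbp, 4 resident macrophage genes and 7 other chemokine genes in the 3 EGFP+ IM libraries of day 14; each symbol is a replicate, and the dashed line parts the genes of Pf4's side from the remaining chemokines. Replicate 1 is highest for every gene left of the line (Pf4 at 339 CPM) and lowest for 6 of the 7 to the right (Cxcl9 at 2.22 CPM), with Cxcl3 the exception. Ppbp and the 4 resident macrophage genes were picked after their values were seen, so their order reflects that choice.

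Across the 24 libraries, the members did not vary as a block. The highest Pearson correlation between members, on log2 CPM, was 0.87 for Cxcl2 with Cxcl3, followed by 0.79 for Cxcl2 with Cxcl10, and the lowest was -0.69 for Cxcl13 with Cxcl14. These values are descriptions over 8 groups, whose libraries share treatment, gate and table. Of the other genes, those most like Cxcl2 were Nod2 (0.98), Nlrp3 (0.97) and Ets2 (0.97), and those most like Cxcl3 were Txnrd1 (0.94), Mdm2 (0.94) and Jag1 (0.93). Cxcl10 was most like Nlrc5 (0.98), Nfkbid (0.98) and Trim30a (0.97), and Cxcl9 was most like Bcl2a1d at 0.75, with Meaf6 (0.71) and Gbp8 (0.68) next. For Cxcl1 the closest were Zfp703 (0.82), Ndufb8 (0.82) and Eif4a1 (0.81), for Cxcl13 Lamb2 (0.93), Npr1 (0.90) and Limch1 (0.89), and for Cxcl14 Blvrb, Anxa1 (0.91 each) and Pgd (0.90). Cxcl16 was followed by Zmynd15, Cmklr1 (0.98) and C3ar1 (0.98), and Pf4 by Rnf150 (0.95), Folr2 (0.94) and Tubb2a (0.93).

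Of the other CXC ligand genes of the mouse, Cxcl5, Cxcl11, Cxcl12, Cxcl15, Cxcl17 and Ppbp summed to 4.22 to 5.88 CPM in wild-type IMs after bleomycin, against 141 to 172 CPM after PBS. There 1 of the 6 was higher and 5 lower. Cxcl15, a chemokine gene of lung epithelium, was 65.8-fold lower after bleomycin (adjusted p = 7.94e-10), beside 9 of 11 lung epithelial markers that fell and 2 that rose. Cxcl11, a further ligand of Cxcr3, was 5.75-fold lower in EGFP+ than in EGFP- IMs (adjusted p = 0.00423) and 4.59-fold higher in EGFP- reporter than in wild-type IMs (adjusted p = 1.16e-05). Of 8 tested receptor genes of CXC chemokines, 3 were higher and 4 lower in wild-type IMs after bleomycin, and 3 were lower and 5 not called in EGFP+ against EGFP- IMs. Cxcr4, which encodes a receptor that holds leukocytes in bone marrow, was among the 3, at 486, 461 and 424 CPM in EGFP+ IMs, against 655, 703 and 697 CPM in EGFP- IMs.

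The NF-kB and interferon lists also differed by EGFP and between the AM groups, with medians below on the log2 fold change scale. Of 20 NF-kB targets and feedback genes, 16 were lower and 4 not called in EGFP+ against EGFP- IMs (median -0.74, against -0.01 over all genes), the direction of Cxcl2 and not that of Cxcl1. In wild-type IMs after bleomycin 4 were higher and 13 lower than after PBS (median -0.45), with Relb, an NF-kB subunit gene, 2.4-fold lower. At day 14 against day 7 in EGFP+ IMs 16 were lower and 4 not called (median -1.04, against -0.01 over all genes). In AMs at day 14 against PBS 10 were higher and 6 lower (median 0.22, against -0.01 over all genes), with the interleukin gene Il1b 7.6-fold higher. At day 30 against day 14 4 were higher and 11 lower (median -0.31, against 0.01 over all genes), with Il6 5.3-fold lower. Of 19 tested interferon-stimulated genes, 14 were higher and 1 lower in AMs at day 14 than after PBS (median 1.58), and 16 were higher and 3 not called at day 30 (median 1.67, against 0.02 over all genes). Of 11 tested neutrophil markers in AMs, 1 was higher and 8 lower at day 14 against PBS (median -4.69). At day 30 against PBS, where Cxcl1, Cxcl2 and Cxcl3 were lower, 7 were higher and 4 not called (median 1.36).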

How the data were processed

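Polyadenylated RNA of 24 libraries was sequenced with 150-base paired-end reads. The submitters' processing notes name FastQC 0.11.5, Trimmomatic 0.38, HISAT2 2.1.0, featureCounts 1.6.3 and the build GRCm38; the series' design text gives HISAT2 as the aligner and featureCounts as the counter. The annotation release and the strand setting of the counting were not given in the sources used here. The authors deposited raw counts per gene in 2 tables, of 49585 genes (15 libraries used, those of wild-type IMs, day 7 reporter IMs and PBS AMs) and 55487 genes (9 libraries, the others). The tables were joined by gene ID on the 49022 genes in both, of which 90.8% have the same gene model. Columns of 3 libraries that match no sample were not used.

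Levels are CPM of a library's own total. Level per kb uses exon-union length. Differences were tested with edgeR 4.0.16 (TMM factors, filterByExpr, robust quasi-likelihood F test, R 4.3.3) on whole-number counts, with Benjamini-Hochberg adjustment over all genes tested and a threshold of 0.05. SE is the size of the log2 fold change divided by the square root of F. Fits shared their spread over the groups of 1 gate or day: the day 7 and day 14 reporter IMs, the AM groups, and otherwise the groups compared alone, except that both comparisons of reporter with wild-type IMs share 1 fit. The fitting code was first tested on simulated counts in which 200 genes had been changed. Replicate pairs of every group differed by more than sampling noise (chi-square per gene from 2.89 upward). Samples were grouped by their titles. Same-numbered IM and AM libraries of day 14 deviated together (correlations of deviations from the group means 0.254, 0.156 and 0.205). The main test did not use this pairing, which entered only the alternative fit with the replicate number as a block.

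The genes named were all 9 members in each comparison, the receptors Cxcr2, Cxcr3, Cxcr5 and Cxcr6, the sort genes Spp1, Siglecf and Itgam, at most 2 genes per list with the smallest p in a comparison, overlapping genes, and the 3 genes most correlated with each member on log2 CPM (prior count 2) among 11927 genes with a mean of at least 1 CPM. Ppbp, Folr2, Cd163, Lyve1, Mrc1, Gp9, Gp1bb and Gp6 in day 14 IMs were chosen after their values were seen. The members and gene lists were chosen with earlier results of these data known. Alternatives were DESeq2 size factors, DESeq2 1.42.0, no low-count filter, other sets of libraries in the fit, genes with 1 model in both tables, a replicate block, each library left out, and, added after seeing the data, Cxcl16 summed with Zmynd15. Promoter windows were RefSeq's. Protein sequences were not used here.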

Additional observations from a re-analysis of the deposited data

How the results depend on the processing

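Over 1143 member results under alternatives, 1054 kept their direction and side of the threshold, 30 lost the call, 37 gained one and 22, all uncalled, changed sign. In EGFP+ against EGFP- IMs, the members called lower numbered 1 with no low-count filter and 5 with only the 2 groups in the fit, where 4064 genes in all were higher, and the members called higher numbered 1 among genes with the same model in both tables, which leaves Cxcl14 out. For day 14 against day 7 IMs the members called higher numbered 1 with no filter, with only the 2 groups, and with the same gene models. The fit of all 24 libraries gave 1 member higher at day 30 against day 14 in AMs, 1 lower in IMs against AMs after PBS (also 1 with the same gene models), 2937 genes higher and 2969 lower in IMs against AMs at day 14, and 0 members lower in EGFP+ reporter against wild-type IMs, with 1801 genes higher and 1419 lower. In that 0, edgeR gave 2 members lower in the fit of the day 7 libraries. The cause of these shifts was not tested.

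Leaving out 1 library gave 3 to 5 members higher in wild-type IMs after bleomycin (5 without PBS replicate 1). It gave 1 to 2 members lower, 1670 to 2107 genes higher and 1610 to 2114 lower in EGFP+ against EGFP- IMs (the fewest without EGFP+ replicate 2), and 1 to 5 members higher at day 14 against day 7 (5 without day 14 replicate 1). It gave 868 to 1529 genes lower in IMs against AMs at day 14 and 3 to 5 members higher in EGFP- reporter against wild-type IMs. The 5 were reached without EGFP- replicate 3, where Cxcl13 (log2 fold change 1.27) and Cxcl14 (0.35) passed.

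Signs changed near 0, given as log2 fold changes. Cxcl10 in wild-type IMs was -0.0119 with DESeq2 size factors, -0.0121 by DESeq2, -0.0175 with all 24 libraries and -0.0499 to 0.1474 without 1 library, and Pf4 there was -0.0338 to 0.3738. Leaving out 1 library gave -0.2817 to 1.4287 for Cxcl9 and -0.1669 to 0.4239 for Cxcl16 at day 14 against day 7, -0.4953 to 0.2222 for Cxcl13 in AMs at day 30 against PBS, -0.0784 to 0.1853 for Cxcl10 at day 30 against day 14, -0.4944 to 0.2988 for Cxcl10 between the gates at day 14, -0.0837 to 0.1798 for Cxcl1 between the gates after PBS and -0.013 to 0.2252 for Pf4 in EGFP+ reporter against wild-type IMs. Cxcl1 in EGFP- reporter against wild-type IMs was 0.0098 with DESeq2 size factors, 0.0097 by DESeq2 and -0.122 to 0.0242 without 1 library.

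With the replicate number as a block, 6 members in place of 5 were higher in IMs against AMs at day 14, the only pairing borne out, and 1841 and 1807 genes were called higher and lower. Elsewhere the numbers did not pair libraries (correlations from -0.052 to 0.109). There the block left 1 member lower in EGFP+ against EGFP- IMs and 4 higher in wild-type IMs after bleomycin, and did not move the other counts of members. In AMs at day 14 against PBS and in IMs against AMs after PBS each library correlated best with its own number. Depth limits Cxcl13, which had at most 70 counts in any library outside wild-type PBS IMs.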
